A study of Oryza sativa with 24 samples.

Results

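The 30 rice genes described here encode the nuclear enzymes and regulators of the Calvin cycle (17 genes) and of photorespiration (13 genes), and they were taken by identifier from a list, out of 55801 genes in the expression table. Their levels were measured by RNA-seq in flag leaves, the uppermost leaf below the panicle, at heading. All plants had the genetic background of Chunyou84 (CY84), a hybrid of a japonica male-sterile mother line and C84, an intermediate indica-japonica father line. The Fix plants descend from CY84 by genome editing. As background knowledge on this line, the edited genes are REC8, OSD1 and PAIR1, whose combined loss turns meiosis into a division like mitosis, together with MTL, and such plants set clonal seed. The groups were the edited founder generation Fix T0, the seed generations Fix T1, Fix T2, Fix T3 and Fix T4, which were screened for diploids, and the unedited hybrid CY84. Fix T0 and CY84 had been carried forward by their roots, whereas Fix T1 to T4 had been raised from seed. When Fix T1 to T4 are set against Fix T0, generation and growth from seed therefore cannot be told apart. When they are set against CY84, the editing differs as well and cannot be told apart from generation and growth from seed. Each group had 2 libraries, and nothing says whether they came from separate plants, so p-values measure only the spread between these libraries. The unit is FPKM, fragments scaled by gene length and by the mapped fragments of the library.

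The Calvin cycle fixes carbon dioxide in the chloroplast: Rubisco joins it to ribulose bisphosphate, the product is reduced to triose phosphate, and most of the triose phosphate is used to regenerate the acceptor. Rubisco also reacts with oxygen, and the phosphoglycolate formed is salvaged by photorespiration, which runs through chloroplast, peroxisome and mitochondrion and releases carbon dioxide and ammonia. In a rice leaf, a C3 leaf, both pathways run together in the light, and their nuclear genes are among the most highly expressed.

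The table gives identifiers without gene names. The names used below were paired by hand from published rice nomenclature, and the annotation table at hand held a matching name on the same chromosome for 7 of the 30 genes (GLO1, GLO3, GLO5, ALDP, RCA, GDC-H and FBPase) and no name for the other 23, which limits every other name. The match went by name and chromosome only. Another locus on the same chromosome, LOC_Os07g42440 (37.9 to 105 FPKM, not used here), matched the name GLO5 too, so that name is ambiguous. The 2 digits after LOC_Os in an identifier are the chromosome. Leaf genes were high in all libraries: 23 nuclear genes of the light reactions summed to between 53504 and 117997 FPKM. The sums were at most 0.338 FPKM for 2 anther genes and 2.50 to 8.30 FPKM for 3 seed genes. Of the seed genes, WX (LOC_Os06g04200) had 1.66 to 6.67 FPKM. Of 2 root genes, the silicon transporter gene LSI2 was listed at 0 in every library, whereas LSI1 (LOC_Os02g51110) had 32.9 to 72.8 FPKM in the Fix libraries, against 18.6 and 19.6 FPKM in CY84. LSI1 was above CY84 in all 10 Fix libraries and passed in Fix T3 (log2 difference 1.55, SE 0.29, adjusted p = 0.0247, limma) and for the mean of all Fix groups (1.22, SE 0.23, adjusted p = 0.0271). The call was lost in 7 of 19 alternatives for Fix T3, with adjusted p up to 0.217, and in 8 of 18 for the Fix mean, with adjusted p up to 0.473, and leaving out either CY84 library was among them in both. Its part in the results below was not tested. Summed FPKM over all genes was 680768 to 767790 per library, and relative depth, with CY84 replicate 1 as 1, went down to 0.674, while absolute depth is unknown. Pairs of libraries differed in how closely they matched: the share of tested genes at least 2-fold apart within a pair was 16.4% in Fix T1, 14.0% in Fix T2 and 6.60% in Fix T3, against 3.67% in Fix T0, 3.48% in Fix T4 and 1.69% in CY84.

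The 30 genes together made up 6.73% (Fix T3 replicate 1) to 10.7% (Fix T2 replicate 1) of all FPKM in a library. In Fix T4 they made up 7.06 ± 0.0428%, against 8.35 ± 0.456% in CY84 (SD, n = 2 each). Mean levels over the 12 libraries spanned 0.568 FPKM for a Rubisco small subunit gene to 12972 FPKM for CP12, which had rank 3 by mean among all genes of the table. All 30 passed the filter on low values, which asked for 2 libraries at 1 FPKM or more. None of the 30 passed an adjusted p of 0.05 (limma on log2(FPKM + 1), adjusted over 18871 genes) in any of the 9 comparisons made. In bulk leaf tissue, fewer cells of a type and less RNA per cell cannot be told apart.

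**Figure D1:**
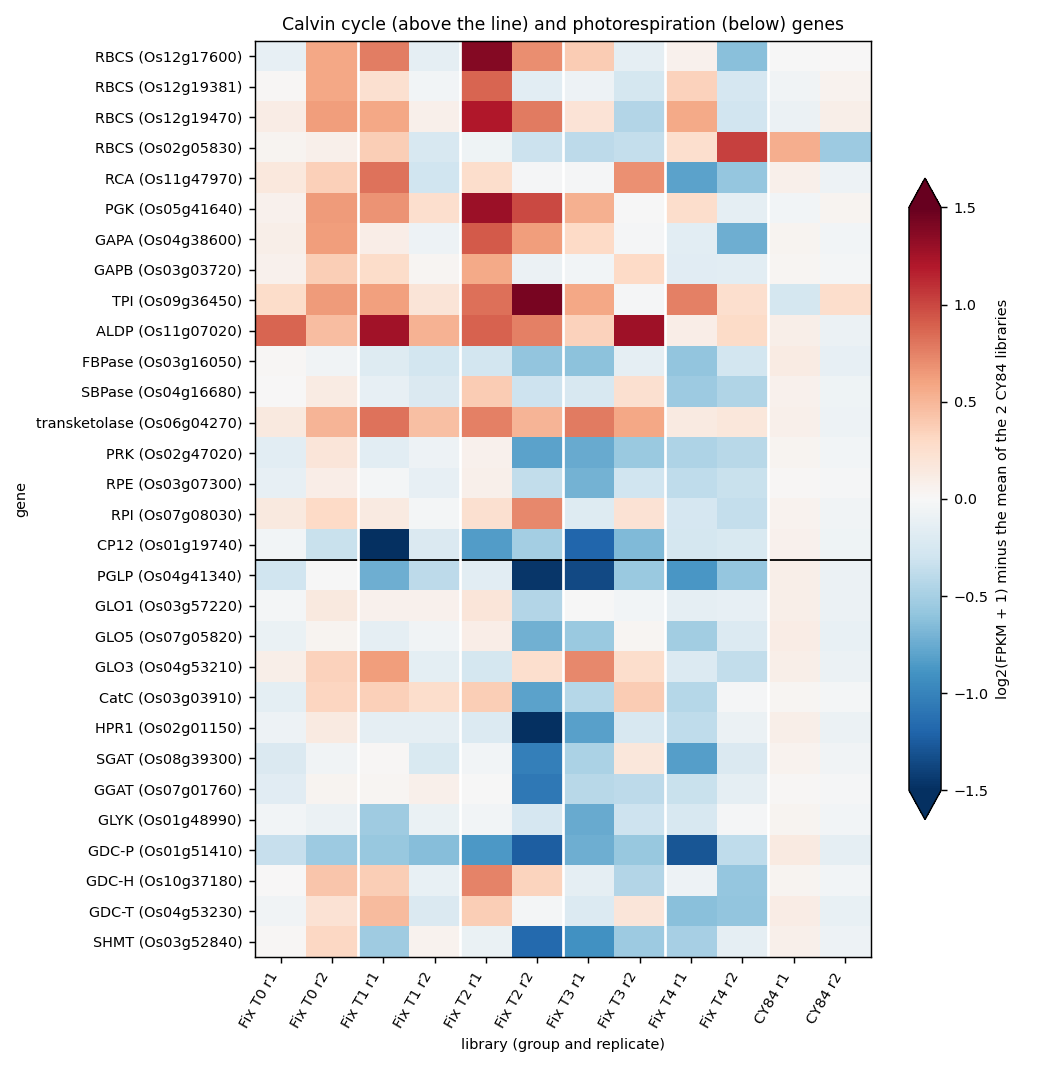
Each cell is log2(FPKM + 1) of a gene in 1 library minus the mean of the 2 CY84 libraries, with red for higher and blue for lower and colours saturated beyond 1.5. Transketolase and ALDP are red in all 10 Fix libraries, GDC-P is blue in all 10, and 8 of the 13 photorespiration genes have their lowest value in Fix T2 replicate 2. Over all tested genes, 2.73% lay above both CY84 libraries in all Fix libraries and 4.71% below. The share with their lowest value in Fix T2 replicate 2 was not computed.

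Rubisco small subunits assemble with the chloroplast-encoded large subunit into the carboxylating enzyme. LOC_Os12g17600 had the highest level of the 4 small subunit genes, with 5691 and 9313 FPKM in Fix T0, 10608 and 5646 in Fix T1, 16227 and 10076 in Fix T2, 8101 and 5658 in Fix T3, 6524 and 4032 in Fix T4, against 6208 and 6238 in CY84. Both Fix T2 libraries lay above both CY84 libraries, and in each other Fix generation 1 library lay above CY84 and the other below. LOC_Os12g19381 averaged 5245 FPKM over all libraries and LOC_Os12g19470 averaged 1053 FPKM. The fourth, LOC_Os02g05830, had 0.507 and 0.534 FPKM in Fix T0, 0.882 and 0.231 in Fix T1, 0.397 and 0.170 in Fix T2, 0.110 and 0.140 in Fix T3, 0.745 and 1.97 in Fix T4, against 1.13 and 0 in CY84. It was below 2 FPKM in every library and listed at 0 in CY84 replicate 2, and this copy is known in rice for little expression in leaf blades.

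Within the small subunit family the share of LOC_Os12g17600 was 62.3 ± 2.53% in Fix T2 and 46.9 ± 0.706% in Fix T4, against 52.8 ± 1.37% in CY84 (SD, n = 2 each). The share of LOC_Os12g19381 ran the other way, at 29.7 ± 3.88% in Fix T2 and 44.8 ± 1.45% in Fix T4, against 40.2 ± 1.01% in CY84. LOC_Os12g17600 therefore had 1.87 and 2.38 times the FPKM of LOC_Os12g19381 in Fix T2 and 1.08 and 1.01 times in Fix T4, against 1.36 and 1.27 times in CY84. These differences in share were not put to a test. The chromosome 12 genes are near-identical copies, and the sources used here do not say how reads matching more than 1 of them were divided, so their separate levels are uncertain. A further copy of the cluster, LOC_Os12g19394, was not analysed here.

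Rubisco activase (RCA, LOC_Os11g47970) removes inhibitory sugar phosphates from Rubisco. It had 7138 and 8237 FPKM in Fix T0, 11238 and 5201 in Fix T1, 7698 and 6320.4 in Fix T2, 6319 and 10342 in Fix T3, 3661 and 4273 in Fix T4, against 6769.8 and 6073 in CY84. Both Fix T4 libraries lay below both CY84 libraries and both Fix T0 libraries above them, but the Fix T4 difference did not pass (log2 difference -0.70, SE 0.39, 95% interval -1.55 to 0.16, adjusted p = 0.636). Fix T1 had 1 library well above CY84 and the other below, and Fix T3 had 1 library well above and the other within the CY84 range.

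The reduction steps turn phosphoglycerate into triose phosphate, and aldolase then joins trioses into sugar bisphosphates. The plastid aldolase ALDP (LOC_Os11g07020) was the highest of these enzymes, with 8916 and 6686 FPKM in Fix T0, 11599.8 and 6977 in Fix T1, 8974 and 8169 in Fix T2, 6174 and 11741 in Fix T3, 5215 and 5937 in Fix T4, against 5172 and 4557 in CY84. On the deposited scale all 10 Fix libraries were above both CY84 libraries, against 2.73% of all tested genes. The Fix mean was 8039 ± 2282 FPKM (SD, n = 10) against 4864 ± 434 FPKM in CY84 (SD, n = 2). The lowest Fix library, Fix T4 replicate 1, exceeded the higher CY84 library by a small margin, and the difference of the Fix mean did not pass (log2 difference 0.68, SE 0.29, 95% interval 0.03 to 1.32, adjusted p = 0.359). With libraries rescaled by median-of-ratios factors, both Fix T4 libraries fell below the higher CY84 library, so the separation was lost. The Fix T4 log2 difference was then 0.05, against 0.20 as deposited. With libraries as shares of the summed FPKM, Fix T4 replicate 1 fell below it too.

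Phosphoglycerate kinase (PGK, LOC_Os05g41640) phosphorylates phosphoglycerate. It had 269 and 400.4 FPKM in Fix T0, 412 and 307 in Fix T1, 627 and 515 in Fix T2, 372 and 257 in Fix T3, 311 and 235 in Fix T4, against 249.99 and 266 in CY84. Fix T2 stood highest, with 571 ± 79.1 FPKM against 258 ± 11.3 FPKM in CY84 (SD, n = 2 each), and its difference had the smallest p of the 30 genes in that comparison but did not pass (log2 difference 1.14, SE 0.29, 95% interval 0.51 to 1.76, adjusted p = 0.0873). Triose phosphate isomerase (TPI, LOC_Os09g36450), which interconverts the 2 triose phosphates, was the lowest of these enzymes, with 98.7 and 127 FPKM in Fix T0, 125 and 93.2 in Fix T1, 144 and 219 in Fix T2, 122 and 80.1 in Fix T3, 138 and 96.6 in Fix T4, against 67.5 and 97.3 in CY84. Its Fix T2 pair was above CY84 too, at 181 ± 52.9 FPKM against 82.4 ± 21.1 FPKM (SD, n = 2 each), and again without passing (log2 difference 1.12, SE 0.32, 95% interval 0.43 to 1.81, adjusted p = 0.0930). These 2 genes passed when either Fix T1 library was left out of the fit, with adjusted p of 0.0371 or 0.0370 for PGK and 0.0494 or 0.0493 for TPI, and the share of all tested genes called was then 8.53% or 8.49%, against 0.159% with all libraries.

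GAPA and GAPB form the chloroplast glyceraldehyde-3-phosphate dehydrogenase, the reducing step that uses NADPH. GAPA (LOC_Os04g38600) had 1676 and 2437 FPKM in Fix T0, 1695 and 1500.05 in Fix T1, 2987 and 2441 in Fix T2, 1941 and 1567 in Fix T3, 1423 and 955 in Fix T4, against 1632 and 1535 in CY84. It was above CY84 in both Fix T2 libraries and below it in both Fix T4 libraries (log2 differences 0.77 and -0.44, adjusted p = 0.145 and 0.737, limma). GAPB (LOC_Os03g03720) varied less, from 1694 to 2829 FPKM. The FPKM of GAPA over that of GAPB was 1.21 ± 0.219 in Fix T2, against 0.832 ± 0.0111 in CY84 (SD, n = 2 each), a ratio of levels with no test.

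Of the regeneration enzymes, transketolase (LOC_Os06g04270), which moves 2-carbon units between sugar phosphates, was the other Calvin cycle gene above CY84 in all Fix libraries. It had 305 and 393 FPKM in Fix T0, 488 and 379 in Fix T1, 469 and 394 in Fix T2, 476 and 415 in Fix T3, 305 and 309.9 in Fix T4, against 291 and 262 in CY84. The Fix libraries averaged 393 ± 70.5 FPKM (SD, n = 10) against 277 ± 20.6 FPKM in CY84 (SD, n = 2). The lowest Fix values, of Fix T4 and of Fix T0 replicate 1, were close to the higher CY84 value, and the difference did not pass (log2 difference 0.49, SE 0.18, 95% interval 0.08 to 0.89, adjusted p = 0.309). In Fix T3 alone it was 445 ± 43.6 FPKM against the same CY84 value (log2 difference 0.68, SE 0.24, 95% interval 0.16 to 1.20, adjusted p = 0.138). Under median-of-ratios scaling both Fix T4 libraries fell below the higher CY84 library for transketolase, so the separation was lost. Its Fix T4 log2 difference was then 0.01, against 0.15 as deposited.

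Phosphoribulokinase (PRK, LOC_Os02g47020) makes the Rubisco substrate ribulose bisphosphate. It had 769 and 969.8 FPKM in Fix T0, 770.3 and 812 in Fix T1, 893 and 490.2 in Fix T2, 508 and 584 in Fix T3, 622 and 639 in Fix T4, against 883 and 831 in CY84. Fix T3 had the lowest mean, with 546 ± 54.1 FPKM against 857 ± 36.8 FPKM in CY84 (SD, n = 2 each), and both Fix T3 and both Fix T4 libraries lay below CY84 without passing (-0.65 and -0.44 on the log2 scale, adjusted p = 0.208 and 0.716, limma). Ribose-5-phosphate isomerase (RPI, LOC_Os07g08030) was the lowest of the regeneration genes, with 237 and 264 FPKM in Fix T0, 235 and 210.1 in Fix T1, 254 and 354 in Fix T2, 187 and 248 in Fix T3, 179.6 and 167 in Fix T4, against 223 and 206 in CY84. It was above CY84 in both Fix T2 libraries and below it in both Fix T4 libraries.

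Ribulose phosphate epimerase (RPE, LOC_Os03g07300) ranged from 241 to 423 FPKM. The bisphosphatases that commit carbon to regeneration, FBPase (LOC_Os03g16050) and SBPase (LOC_Os04g16680), averaged 575 and 963 FPKM over all libraries. FBPase had 683 and 652 FPKM in Fix T0, 589 and 558 in Fix T1, 558 and 448 in Fix T2, 439.8 and 615 in Fix T3, 447 and 555 in Fix T4, against 735 and 618 in CY84. On the deposited scale all 8 libraries of Fix T1 to T4 were below both of Fix T0, and below both of CY84. Of all tested genes, 2.11% lay below both Fix T0 libraries in this way, and the share for CY84 was not computed. Under median-of-ratios scaling Fix T1 replicate 1 rose above both CY84 and both Fix T0 libraries, so both separations were lost.

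CP12 (LOC_Os01g19740) is a small protein that holds GAPDH and PRK in an inactive complex in the dark. It had 17215 and 14025 FPKM in Fix T0, 2874 and 15174 in Fix T1, 9916 and 12413 in Fix T2, 7734 and 11136 in Fix T3, 14729 and 15045 in Fix T4, against 18428 and 16969 in CY84. All 5 Fix generations had means below the CY84 mean of 17698 ± 1032 FPKM (SD, n = 2), but Fix T1 rests on a pair that differed 5.28-fold, with replicate 1 the lowest library of all. The Fix T1 difference did not pass (log2 difference -1.42, SE 0.59, 95% interval -2.70 to -0.14, adjusted p = 0.448). Without Fix T1 replicate 1 it was -0.22, and without Fix T1 replicate 2 it was -2.62 with an adjusted p of 0.00878 (limma, 2.88% of all tested genes called), so 1 library decides the value. A second gene carrying the CP12 name, LOC_Os03g19380, ranged from 176 FPKM in Fix T1 replicate 1 to 1636 FPKM in Fix T2 replicate 2.

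**Figure D2:**
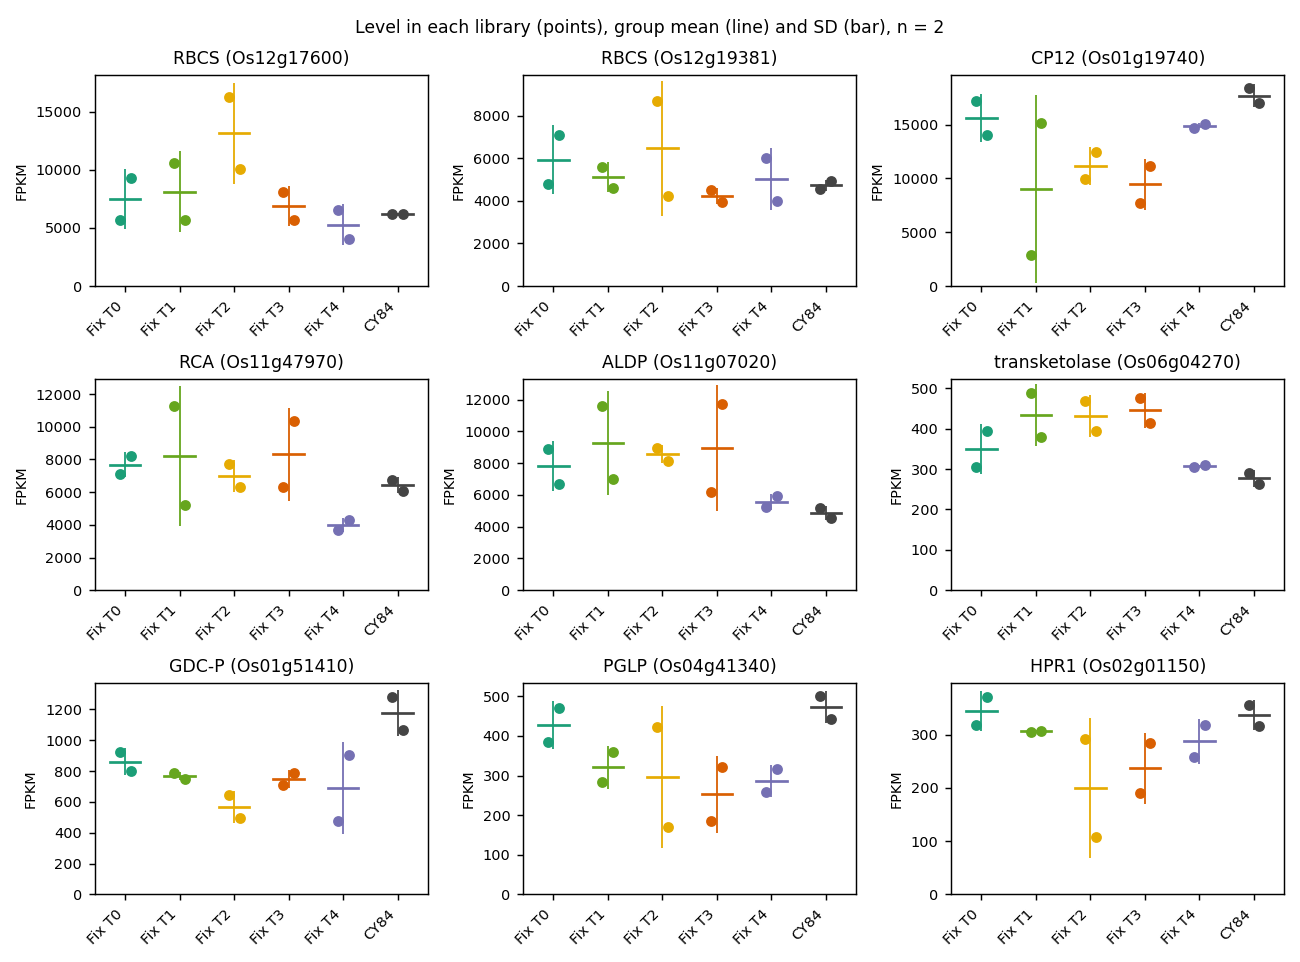
FPKM of 9 genes in each library (points), with the group mean (line) and SD (bar, n = 2), for Fix T0 to T4 and then CY84. CP12 in Fix T1 replicate 1 (2874 FPKM) and HPR1 in Fix T2 replicate 2 (107 FPKM) stand far below the other library of their pair.

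Photorespiration begins with phosphoglycolate phosphatase (PGLP, LOC_Os04g41340), which frees glycolate in the chloroplast. It had 384 and 470.1 FPKM in Fix T0, 283 and 359.8 in Fix T1, 424 and 171 in Fix T2, 184 and 322 in Fix T3, 258 and 316 in Fix T4, against 502 and 444 in CY84. Of the 10 Fix libraries, 9 lay below both CY84 libraries, the exception being Fix T0 replicate 2. In Fix T3 the mean was 253 ± 97.0 FPKM against 473 ± 41.1 FPKM in CY84 (SD, n = 2 each) without passing (log2 difference -0.95, SE 0.39, 95% interval -1.80 to -0.11, adjusted p = 0.185).

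Glycolate oxidase then oxidises glycolate in the peroxisome and releases hydrogen peroxide. GLO1 (LOC_Os03g57220) supplied 58.7% to 68.3% of the FPKM of the 3 listed oxidase genes and GLO5 (LOC_Os07g05820) 31.0% to 40.9%, and GLO1 had the smallest spread of all 30 genes, from 984 to 1525 FPKM. GLO3 (LOC_Os04g53210) was the lowest photorespiration gene, with 7.93 and 9.66 FPKM in Fix T0, 11.9 and 6.58 in Fix T1, 5.98 and 9.00 in Fix T2, 12.8 and 9.03 in Fix T3, 6.25 and 5.49 in Fix T4, against 7.87 and 6.91 in CY84. It was above CY84 in both Fix T3 libraries and below it in both Fix T4 libraries, with log2 differences of 0.49 and -0.29 that did not pass (adjusted p = 0.369 and 0.899, limma). Catalase CatC (LOC_Os03g03910), which breaks down the peroxide, ranged from 687 FPKM in Fix T2 replicate 2 to 1558 FPKM in Fix T3 replicate 2.

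The peroxisomal aminotransferases make glycine from glyoxylate. Serine glyoxylate aminotransferase (SGAT, LOC_Os08g39300) had the highest mean of the photorespiration genes, with 1668 and 1874 FPKM in Fix T0, 1961 and 1658 in Fix T1, 1897 and 955 in Fix T2, 1401 and 2186 in Fix T3, 1094 and 1674 in Fix T4, against 2017 and 1875 in CY84. Its low values were in Fix T2 replicate 2 and Fix T4 replicate 1, and the other library of each of these pairs was far closer to CY84. Glutamate glyoxylate aminotransferase (GGAT, LOC_Os07g01760) had 756 and 871 FPKM in Fix T0, 866 and 891 in Fix T1, 846 and 404 in Fix T2, 635 and 648 in Fix T3, 675 and 772 in Fix T4, against 857 and 839.6 in CY84. It was below CY84 in both Fix T3 and both Fix T4 libraries and lowest in Fix T2 replicate 2. Hydroxypyruvate reductase (HPR1, LOC_Os02g01150), which returns carbon towards glycerate, had 318 and 370.2 FPKM in Fix T0, 305 and 307 in Fix T1, 292 and 107 in Fix T2, 189.9 and 284 in Fix T3, 257 and 317 in Fix T4, against 356 and 317 in CY84. Fix T2 replicate 2 had by far the lowest value, and the other library of that pair was among the other Fix libraries. Glycerate kinase (GLYK, LOC_Os01g48990), which closes the cycle in the chloroplast, ranged from 70.7 to 124 FPKM.

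In mitochondria, glycine decarboxylase (GDC) and serine hydroxymethyltransferase (SHMT) turn glycine into serine with loss of carbon dioxide and ammonia. The P protein (GDC-P, LOC_Os01g51410) carries out the decarboxylation. Of the 30 genes only GDC-P was below CY84 in all 10 Fix libraries, against 4.71% of all tested genes. It had 922 and 801 FPKM in Fix T0, 789 and 749.7 in Fix T1, 643 and 495 in Fix T2, 707 and 789.6 in Fix T3, 478 and 901 in Fix T4, against 1281 and 1069 in CY84. The Fix libraries averaged 728 ± 151 FPKM (SD, n = 10) against 1175 ± 150.00 FPKM in CY84 (SD, n = 2). The difference of the Fix mean did not pass (log2 difference -0.72, SE 0.23, 95% interval -1.23 to -0.21, adjusted p = 0.233), nor did the largest difference of a single generation, that of Fix T2 (log2 difference -1.05, SE 0.30, 95% interval -1.71 to -0.39, adjusted p = 0.0942). In Fix T4 it was -0.83 (adjusted p = 0.289, limma), with replicate 1 at about the level of Fix T2 replicate 2 and replicate 2 at that of Fix T0.

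The lipoyl carrier GDC-H (LOC_Os10g37180) was the lowest of the mitochondrial genes on average, with 387 and 516 FPKM in Fix T0, 499 and 357 in Fix T1, 648 and 485 in Fix T2, 351 and 285 in Fix T3, 364 and 257 in Fix T4, against 398 and 374 in CY84. The aminomethyltransferase GDC-T (LOC_Os04g53230) had 572 and 691 FPKM in Fix T0, 823 and 511 in Fix T1, 765 and 579.9 in Fix T2, 514 and 671 in Fix T3, 383 and 394 in Fix T4, against 641 and 548 in CY84. In Fix T2 both libraries had more GDC-H than CY84 while both had less GDC-P, and in Fix T4 both libraries had less of all 3 genes than CY84 (GDC-T 389 ± 7.23 FPKM against 595 ± 65.7 FPKM, SD, n = 2 each, log2 difference -0.61, SE 0.28, 95% interval -1.23 to 0.01, adjusted p = 0.495). The FPKM of GDC-H over that of GDC-P was 0.420 and 0.644 in Fix T0, 0.633 and 0.476 in Fix T1, 1.01 and 0.980 in Fix T2, 0.496 and 0.361 in Fix T3, 0.762 and 0.285 in Fix T4, against 0.311 and 0.350 in CY84. The FPKM of GDC-T over that of GDC-P was 0.621 and 0.863 in Fix T0, 1.04 and 0.682 in Fix T1, 1.19 and 1.17 in Fix T2, 0.727 and 0.849 in Fix T3, 0.801 and 0.437 in Fix T4, against 0.501 and 0.513 in CY84. Both ratios were highest in the Fix T2 pair, whose libraries were close to each other, and the Fix T4 pair differed widely, with replicate 2 below both CY84 libraries. These ratios of levels were not put to a test.

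SHMT (LOC_Os03g52840) had 755 and 930.2 FPKM in Fix T0, 514 and 777 in Fix T1, 697 and 333 in Fix T2, 399 and 512 in Fix T3, 529.9 and 682 in Fix T4, against 787 and 708 in CY84. Fix T0 averaged 842 ± 124 FPKM and CY84 748 ± 55.8 FPKM (SD, n = 2 each), and the mean of Fix T1 to T4 differed from Fix T0 by -0.64 on the log2 scale, the smallest p of the 30 genes in that comparison but not passing (SE 0.27, adjusted p = 0.552, limma). Fix T1 replicate 2 and Fix T2 replicate 1 lay within the range of CY84 or just below it.

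The summed levels of the 2 pathways moved differently between libraries. The 17 Calvin cycle genes summed to 52031 and 55847 FPKM in Fix T0, 51099 and 45507 in Fix T1, 63888 and 50388 in Fix T2, 40760.4 and 51048 in Fix T3, 43492 and 39663 in Fix T4, against 49393 and 46662 in CY84. The 13 photorespiration genes summed to 9111 and 10539 FPKM in Fix T0, 9877 and 9423 in Fix T1, 10352 and 5847 in Fix T2, 7284 and 9571 in Fix T3, 6868 and 8615 in Fix T4, against 10576 and 9548 in CY84. The photorespiration sum was lowest in Fix T2 replicate 2, in which the Calvin cycle sum was within the range of the other libraries, and the lowest Calvin cycle sums were those of Fix T4 replicate 2 and Fix T3 replicate 1.

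The ratio of the photorespiration sum to the Calvin cycle sum was 0.175 and 0.189 in Fix T0, 0.193 and 0.207 in Fix T1, 0.162 and 0.116 in Fix T2, 0.179 and 0.187 in Fix T3, 0.158 and 0.217 in Fix T4, against 0.214 and 0.205 in CY84. It was below CY84 in 8 of 10 Fix libraries, and Fix T1 replicate 2 and Fix T4 replicate 2 were the others. Small subunit genes weigh heavily in the denominator: without them the Calvin cycle sum was 35876 ± 1704 FPKM in Fix T2, against 36246 ± 2278 FPKM in CY84 (SD, n = 2 each). CP12, still part of that sum, weighs heavily too, with a mean of 11165 FPKM in Fix T2 and 17698 FPKM in CY84. ALDP ran the other way, with 8572 and 4864 FPKM, so near-equal sums do not mean that the other genes were level. These sums are descriptions with no test.

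**Figure D3:**
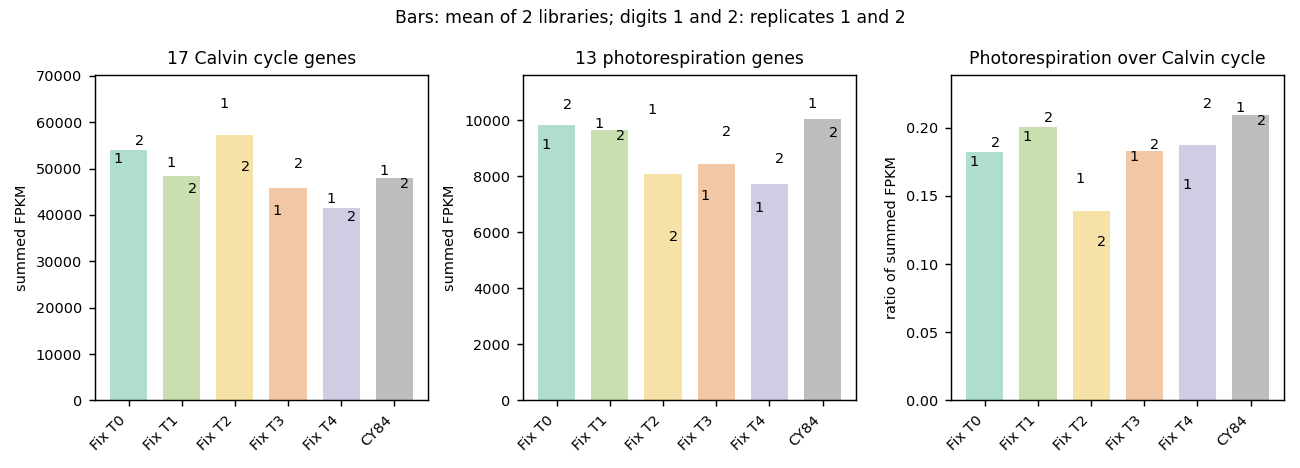
Summed FPKM of the 17 Calvin cycle genes (left) and the 13 photorespiration genes (middle) and the ratio of the sums (right), with bars for the mean of 2 libraries and digits for replicates 1 and 2. Fix T2 replicate 2 has the lowest photorespiration sum (5847 FPKM) and the lowest ratio (0.116).

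The 2 libraries of Fix T2 differed widely in photorespiration genes. Replicate 2 was below replicate 1 for 12 of the 13, with a median log2 difference of -0.82. Of the 18871 tested genes, 11963 were lower in replicate 2 too, with a median of -0.22. At least 2-fold apart were 5 of the 13 (38.5%), against 14.0% of all tested genes in the same pair. Replicate 2 also had the lowest value of all 12 libraries for 8 of the 13 photorespiration genes. HPR1 had 107 FPKM there and 292 FPKM in replicate 1, and PGLP had 171 and 424 FPKM. Replicate 1 of this pair in turn had the highest value of all libraries for 7 of the 17 Calvin cycle genes. The shares of all tested genes with their lowest or highest value in these libraries were not computed.

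Other leaf programmes also differed between libraries, not all in the same direction. Summed FPKM of 8 circadian clock genes, all above 1 FPKM in at least 1 library, was 726 and 703 FPKM in Fix T0, 526 and 802 in Fix T1, 669 and 275 in Fix T2, 419 and 414 in Fix T3, 574 and 857 in Fix T4, against 859 and 816 in CY84. The lowest sum was again Fix T2 replicate 2. Summed FPKM of 5 leaf senescence genes, none of them below 1 FPKM throughout, was 91.4 FPKM in the same library and ranged up to 320.02 FPKM in CY84 replicate 2. All 5 had log2 differences from CY84 below 0 in each Fix generation, against 36.1% (Fix T4) to 72.4% (Fix T2) of all tested genes. In Fix T3, 1 of the 5 passed, lower (adjusted p = 0.0304, limma), against 1.77% of all tested genes. That call was not followed through the alternative fits. The 23 light reaction genes had their highest sum, 117997 FPKM, in Fix T2 replicate 2. The part of the clock, of senescence or of this library in the photorespiration values was not tested.

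Set against all tested genes, the 30 genes gave no more calls than the background. In the F test across the 6 groups, 1.91% of tested genes passed and 0 of the 30 did, with PGK (F 4.01, adjusted p = 0.163), GAPA (F 3.69, adjusted p = 0.180) and transketolase (F 2.94, adjusted p = 0.228) nearest to passing in limma. At an unadjusted p under 0.05, 2 of the 30 passed, against 23.2% of all tested genes.

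For each generation against CY84 the share of all tested genes called was 0.0901% in Fix T0, 0.503% in Fix T1, 0.159% in Fix T2, 1.77% in Fix T3 and 1.88% in Fix T4, and 0 of the 30 genes passed in each. Before adjustment, a p under 0.05 was reached by 0, 3, 8, 4 and 1 of the 30 in Fix T0 to T4, against 3.87%, 9.56%, 25.6%, 22.3% and 10.3% of all tested genes. These comparisons share the CY84 libraries and are not independent. The median 95% interval reached 0.67 to either side on the log2 scale, so a missed threshold does not show equal levels. The interval lay within a 2-fold change either way for 22 of the 30 genes in Fix T0 and for 19, 11, 14 and 13 genes in Fix T1, T2, T3 and T4.

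In Fix T0, 10 of the 30 genes lay above CY84 in both libraries, 9 of them of the Calvin cycle, and 2 below, both of photorespiration, against 18.0% and 26.6% of all tested genes. The smallest p were those of ALDP (0.67), GDC-P (-0.44) and TPI (0.46), with adjusted p of 1.00, 1.00 and 1.00 (limma). In Fix T1, 6 genes lay above and 9 below, against 17.2% and 23.3%, and transketolase (0.64, adjusted p = 0.400) and ALDP (0.89, adjusted p = 0.475) were nearest to passing with CP12.

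In Fix T2, 9 genes lay above CY84 in both libraries, 8 of them of the Calvin cycle, and 6 below, 4 of them of photorespiration, against 11.1% and 47.7% of all tested genes. The median log2 difference was 0.36 for the 17 Calvin cycle genes and -0.31 for the 13 photorespiration genes, beside -0.33 for all tested genes. With libraries rescaled by median-of-ratios factors, which shift the median of all genes by 0.35, these medians were 0.82 and 0.16, so the sign for photorespiration depends on the scaling. When Fix T2 replicate 1 was left out, 6 of the 30 genes passed, against 13.8% of all tested genes: TPI was higher (1.42, adjusted p = 0.0329), and HPR1 (-1.64, adjusted p = 0.0176), PGLP (-1.46, adjusted p = 0.0271), GGAT (-1.07, adjusted p = 0.0275), SHMT (-1.16, adjusted p = 0.0424) and GDC-P (-1.24, adjusted p = 0.0447) were lower, all in limma. That fit compares the single library Fix T2 replicate 2 with CY84 and assumes that it varies as the other groups do.

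In Fix T3, 3 genes lay above CY84 in both libraries and 12 below, 7 of them of photorespiration, against 17.6% and 46.6% of all tested genes. Median differences were 0.01 for the Calvin cycle and -0.29 for photorespiration, beside -0.26 for all tested genes, and under median-of-ratios scaling they were 0.32 and 0.02, while with libraries as shares of the summed FPKM the Calvin cycle median was -0.01. With the 4 libraries of Fix T1 and Fix T2 left out, since their pairs were the loosest, transketolase (0.68, adjusted p = 0.0382), PRK (-0.65, adjusted p = 0.0479) and PGLP (-0.95, adjusted p = 0.0381) passed in limma, and 17.4% of all tested genes did.

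Most of the 30 genes had lower levels in Fix T4. On the deposited scale 19 of them lay below CY84 in both libraries, 9 of the Calvin cycle and 10 of photorespiration, and 2 above. The shares over all tested genes were 15.0% below and 35.7% above. The log2 difference was below 0 for 23 of the 30 genes and for 13 of 13 photorespiration genes, against 36.1% of all tested genes. The light reaction list lay the same way, with 20 of 23 genes below 0 and a median of -0.24, while 5 of the 12 other genes of the same pathways were below 0. The median was -0.28 for the 30 genes and 0.12 for all tested genes. Under median-of-ratios scaling 26 of the 30 were below 0, with a median of -0.41. The smallest p was that of GDC-P, whose size depended on 1 library. Its log2 difference was -0.38 without Fix T4 replicate 1 and -1.29 without Fix T4 replicate 2. PGLP differed by -0.72 (adjusted p = 0.598, limma). No single gene passed, and the genes are not independent of one another, so the count describes these 4 libraries.

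**Figure D4:**
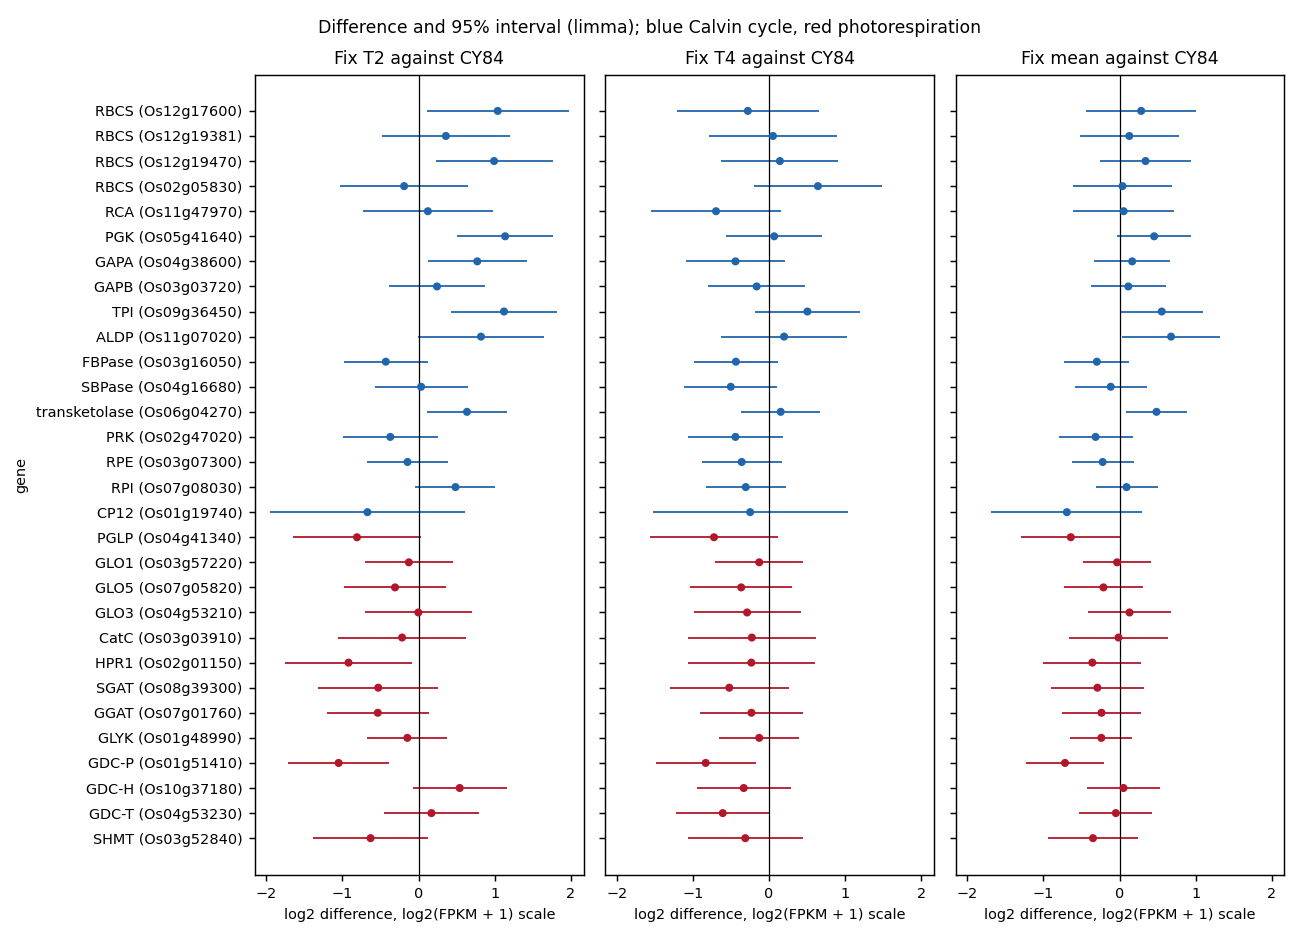
Log2 difference from CY84 (point) with its 95% interval (line, limma on log2(FPKM + 1)) for each gene in Fix T2, in Fix T4 and for all Fix generations averaged. In Fix T2, 12 of 17 Calvin cycle points (blue) lie above 0 and 11 of 13 photorespiration points (red) below. In Fix T4 all 13 photorespiration points lie below 0. Of all tested genes, 72.4% were below 0 in Fix T2 and 36.1% in Fix T4. Under median-of-ratios scaling 6 of the 13 photorespiration genes were below 0 in Fix T2.

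With the 5 Fix generations averaged and set against CY84, 0.747% of tested genes passed and 0 of the 30 did, and 4 of the 30 reached an unadjusted p under 0.05, against 13.1% of all tested genes. ALDP and transketolase lay above CY84 in all Fix libraries and GDC-P below, on the deposited FPKM scale, against 2.73% and 4.71% of all tested genes. The median difference was 0.12 for the Calvin cycle and -0.24 for photorespiration, beside -0.13 for all tested genes. Under median-of-ratios scaling these were 0.28 and -0.07. The count of photorespiration genes below 0 was then 8 of 13, against 11 of 13 on the deposited scale. Of all tested genes, 63.9% were below 0 on the deposited scale.

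For the mean of Fix T1 to T4 against Fix T0, 0.207% of tested genes passed and 0 of the 30 did, and 1 of the 30 reached an unadjusted p under 0.05, against 8.64% of all tested genes. On the deposited scale FBPase and HPR1 lay below Fix T0 in all 8 libraries and 0 genes above it, against 2.11% and 1.76% of all tested genes. Under median-of-ratios scaling Fix T1 replicate 1 rose above Fix T0 replicate 1 for both FBPase and HPR1, so neither separation held. After SHMT, the smallest p were those of PGLP (-0.61, adjusted p = 0.600) and PRK (-0.41, adjusted p = 0.624), in limma.

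Along the generations, a linear contrast over Fix T0 to T4 called 0.954% of tested genes and 0 of the 30, with 4 of the 30 at an unadjusted p under 0.05, against 7.80% of all tested genes. The fitted slope was below 0 for 28 of the 30 genes, and for 13 of 13 photorespiration genes, against 40.5% of all tested genes. Slopes were also below 0 for 19 of the 23 light reaction genes and 7 of the 8 clock genes, and for 5 of the 12 other genes of the same pathways. The median slope was -0.09 per generation for the 30 genes and 0.02 for all tested genes, and 28 of the 30 were below 0 under median-of-ratios scaling too. The 3 smallest p were those of GDC-T (-0.15 per generation, adjusted p = 0.529), GDC-H (-0.15, adjusted p = 0.539) and PRK (-0.14, adjusted p = 0.608), in limma. PGK and GAPA had their highest means in Fix T2, between the ends of that line.

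A further 12 genes of the same pathways, outside the 30, were followed as a list. In Fix T3 against CY84, 1 of the 12 passed, higher, and in the other 8 comparisons 0 did. It was LOC_Os11g26860, a serine hydroxymethyltransferase family gene, with 249 and 232 FPKM in Fix T3 against 119 and 116 FPKM in CY84 (log2 difference 1.03, SE 0.23, adjusted p = 0.0495, limma). That call is at the threshold and was lost in 12 of 19 alternative fits, where the adjusted p went up to 0.342.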

How the data were processed

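RNA-seq values of 12 flag leaf libraries in 6 groups were used, without the 12 bisulfite samples of the series. The authors deposited 1 table of FPKM. The submitters' processing notes name HISAT2 2.1.0, StringTie 1.3.4d and featureCounts 1.6.4 among the tools, and their roles, the strand setting and the genome build are not given in the sources used here. No use was made of 20 columns without a name. The members and lists were chosen with earlier results of these data known.

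Of 55801 genes, 26866 were at 0 throughout, and 18871 that reached 1 FPKM in 2 or more libraries were tested. Values were taken as log2(FPKM + 1), which understates changes of low genes, and limma 3.58.1 (R 4.3.3) was run on them with 1 mean for each group, a trended prior and 1 spread shared by all groups. The threshold was an adjusted p (Benjamini-Hochberg) under 0.05 over all tested genes within each of the 9 comparisons. Read counts were not used here, so no counting interval is given.

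Values in every library are given for members that passed, for the 3 with the smallest p in each comparison and for the highest and lowest of each role, and HPR1, GGAT and FBPase were added after their values were seen. Alternatives were a pseudocount of 0.1, no filter, 2 rescalings, a replicate block, the compared groups alone, and leaving out libraries.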

Additional observations from a re-analysis of the deposited data

Results flagged for a closer look

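For 7 of the 30 genes both libraries of one Fix generation lay above both CY84 libraries while both libraries of another lay below them. None of these differences passed in the fits above, and the difference between the generations was not tested. With 2 libraries per group a single sample far from the others could not be assessed. The share of all tested genes with such a pattern was not computed, so the 7 genes cannot be called unusual. Within a single generation, 11.1% to 35.7% of all tested genes lay above CY84 in both libraries and 15.0% to 47.7% below.

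Between Fix T4 and the generation that lay above CY84, the log2 values differed by -1.21 for GAPA (Fix T4 -0.44, Fix T2 0.77), the reducing step of the Calvin cycle. The same pair of generations differed by -0.87 for GDC-H (Fix T4 -0.33, Fix T2 0.54) and by -0.79 for RPI (Fix T4 -0.31, Fix T2 0.48). Fix T4 and Fix T0 differed by -0.95 for RCA (Fix T4 -0.70, Fix T0 0.26) and by -0.38 for GAPB (Fix T4 -0.16, Fix T0 0.22). Fix T4 and Fix T3 differed by -0.78 for GLO3 (Fix T4 -0.29, Fix T3 0.49), a gene at 12.8 FPKM or less in every library. Fix T3 and Fix T1 differed by -0.45 for GGAT (Fix T3 -0.40, Fix T1 0.05).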

How the results depend on the processing

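The count of 0 members passing held in every alternative except those named here. Leaving out 1 library at a time gave 0 to 1 for the F test and Fix T1, 0 to 6 for Fix T2 and 0 for the other comparisons, and 3 passed in Fix T3 without the 4 libraries of Fix T1 and Fix T2. The 30 named gene results are not the 30 genes: they are the 3 smallest p of each comparison and the calls of LSI1 and LOC_Os11g26860. Of their 557 alternative values, 0 reversed. F test results have no sign and could not reverse, and the others were picked for a small p. This count therefore says nothing on how stable the directions of the 30 genes are.

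The members' median difference from CY84 moved beyond the spread between replicates for Fix T2 (0.37) and Fix T3 (0.18) under median-of-ratios scaling. Leaving out 1 library gave 0.00 to 0.26 in Fix T0, -0.09 to 0.11 in Fix T1, -0.28 to 0.22 in Fix T2, -0.22 to -0.05 in Fix T3, -0.34 to -0.23 in Fix T4, -0.14 to 0.06 for the Fix mean, -0.30 to -0.10 for Fix T1 to T4 against Fix T0 and -0.11 to -0.07 per generation.

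Counts over all genes moved more. For the F test, 360 genes passed, against 222 with a pseudocount of 0.1, 177 without the filter, 220 with the replicate block, 2813 without the 4 libraries and 108 to 2463 when leaving out 1 library. In Fix T0, 17 passed, against 33 without the filter, 36 without the 4 libraries and 5 to 22. In Fix T1, 95 passed, against 55 without the filter, 12 with the compared groups alone and 14 to 543. In Fix T2, 30 passed, against 16 without the filter, 11 with the compared groups alone and 5 to 2609. In Fix T3, 334 passed, against 167 without the filter, 197 with the replicate block, 1076 with the compared groups alone, 3283 without the 4 libraries and 22 to 1124. In Fix T4, 355 passed, against 220 without the filter, 897 with the compared groups alone, 719 without the 4 libraries and 34 to 502. For the Fix mean, 141 passed, against 93 without the filter, 509 without the 4 libraries and 10 to 358. For Fix T1 to T4 against Fix T0, 39 passed, against 65 under median-of-ratios scaling, 21 with the compared groups alone, 453 without the 4 libraries and 9 to 106. For the linear contrast, 180 passed, against 56 with a pseudocount of 0.1, 73 without the filter, 105 with the compared groups alone, 449 without the 4 libraries and 20 to 453. The causes were not tested.

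Calvin cycle sums under median-of-ratios scaling were 50513 FPKM in Fix T0, 70173 in Fix T2, 33758 in Fix T4 and 43005 in CY84, and without the small subunit genes 39424 in Fix T0, 34023 in Fix T1, 35876 in Fix T2, 34027 in Fix T3, 30343 in Fix T4 and 36246 in CY84. Photorespiration sums under that scaling were 6243 FPKM in Fix T4 and 9014 in CY84. With 1 library left out, each sum equals the other library's value given above.

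The replicate numbers did not pair libraries: deviations from group means of equally numbered libraries correlated over 0.1 in 2 of 15 pairs of groups (-0.30 to 0.19), and the block changed no call on a member. A pseudocount does not apply to the sums, leaving out Fix T1 and Fix T2 leaves the other sums as they are, and the fit of compared groups alone equals the full fit for the F test and the Fix mean. With 2 libraries per group and unknown depth, log2 differences under 0.67 were within the median interval of a single generation.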

Other observations

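CatC shares the breakdown of peroxide with other catalases, which lie outside the 30 genes. CATA (LOC_Os02g02400) had 1006 and 961 FPKM in Fix T0, 1209 and 1287 in Fix T1, 954 and 314 in Fix T2, 1370 and 1131 in Fix T3 and 1513 and 1309 in Fix T4, against 589 and 600.3 in CY84. It was above CY84 in 9 of 10 Fix libraries, the exception being Fix T2 replicate 2, and did not pass in Fix T4 (log2 difference 1.24, SE 0.40, adjusted p = 0.198, limma). The other listed catalase, CATB (LOC_Os06g51150), went the other way, with a log2 difference of the Fix mean of -0.31, against 0.80 for CATA. CATB ranged from 33.4 to 64.0 FPKM, with 50.8 and 57.6 FPKM in CY84, and did not pass either. The FPKM of CatC over that of CATA was 1.08 and 1.55 in Fix T0, 1.27 and 1.12 in Fix T1, 1.62 and 2.19 in Fix T2, 0.647 and 1.38 in Fix T3, 0.586 and 0.902 in Fix T4, against 2.08 and 1.95 in CY84. In 9 of 10 Fix libraries this ratio of levels was lower than in CY84, and Fix T2 replicate 2 was the exception. The ratio was not tested.

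Fix T1 replicate 1 had the lowest value of a further photorespiration gene by a wide margin. The shared lipoamide dehydrogenase of glycine decarboxylase, GDC-L (LOC_Os01g22520), had 5.87 FPKM in Fix T1 replicate 1 and 58.6 FPKM in Fix T1 replicate 2, and between 45.4 and 72.2 FPKM in the other 10 libraries. CP12 was lowest in the same library, and so were 7 other genes of the light reaction list and the list of other pathway genes. This was not particular to that library. Fix T4 replicate 2 was lowest for more of the light reaction genes, such as PSBO (2785 FPKM) and PSAD (1784 FPKM). Fix T1 replicate 1 was also the highest library for light reaction genes LOC_Os08g33820 (9055 FPKM) and LOC_Os02g01340 (1253 FPKM).

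Cytosolic enzymes that act on the same triose phosphates were followed beside the chloroplast ones. Both GAPC genes and a cytosolic TPI, enzymes of glycolysis, and the cytosolic FBPase of sucrose synthesis together summed to 1332 and 1537 FPKM in Fix T0, 2016 and 1579.96 in Fix T1, 1452 and 1770.3 in Fix T2, 1689 and 1516 in Fix T3, 1702 and 1289.5 in Fix T4, against 992 and 1247 in CY84. On the deposited scale all 10 Fix sums lay above both CY84 sums. Of the 4 genes only GAPC LOC_Os08g03290 did so by itself. GAPC LOC_Os04g40950 in Fix T2 replicate 1 (178 FPKM) and the TPI in Fix T4 replicate 2 (340 FPKM) lay within the range of CY84. Under median-of-ratios scaling the sum of Fix T4 replicate 2 fell below that of CY84 replicate 2. For the mean of the Fix generations, GAPC LOC_Os08g03290 differed from CY84 by 0.69 on the log2 scale (SE 0.23, adjusted p = 0.248), GAPC LOC_Os04g40950 by 0.46 (SE 0.20, adjusted p = 0.361), TPI LOC_Os01g05490 by 0.46 (SE 0.19, adjusted p = 0.335) and FBPase LOC_Os01g64660 by -0.56 (SE 0.23, adjusted p = 0.338), and 0 of the 4 passed in limma.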
